A study of Homo sapiens with 22 samples.

Results

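Integrins and the proteins that link them to actin were followed as 37 genes, 15 integrin subunits and 22 cytoplasmic proteins of focal adhesions, chosen by symbol from the 60664 genes in the count files. Of these, 32 passed a minimum of 10 CPM (read counts scaled to library size) in at least 2 libraries, as did 9770 genes in all. The cells were IMR90, an established line of human fetal lung fibroblasts, from which RNA was sequenced in 22 libraries. Every culture received siRNA at 10 nM each 24 h over 72 h and lacked serum for the last 24 h. In the control groups the siRNA was a non-template scramble (NTC), and in the MSK2 groups it targeted MSK2, the kinase encoded by RPS6KA4. Cells of each kind were then given PBS (4 libraries each, with a labelled time of 60 min), 750 pM EGF for 30 min (4 each) or 750 pM EGF for 60 min (3 each). The comparisons ask how EGF and loss of MSK2, a nuclear kinase downstream of the EGF receptor that phosphorylates histone H3, altered these transcripts. All groups thus share 1 cell line, transfection and starvation, and each target was knocked down with 1 siRNA product.

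Integrins are dimers of an alpha and a beta chain that span the membrane and bind matrix proteins such as fibronectin and collagen. On the inner side, talin and kindlin bind the beta tail and activate the receptor, vinculin ties talin to actin, and a complex of ILK, PINCH and parvin gives a further link. Focal adhesion kinase, Src and the scaffold proteins paxillin, p130Cas and Crk pass on the signal, and zyxin and the VASP family act where actin filaments grow under tension. In fibroblasts these adhesions hold cells to the matrix and carry the force with which they contract it.

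The libraries held 7893209 to 22244216 counts in genes. RPS6KA4 was lower with MSK2 siRNA in all 3 treatments, with 20.3 ± 6.31 against 2.50 ± 0.958 CPM in PBS (SD, n = 4 each), 18.4 ± 2.96 against 2.64 ± 0.402 at 30 min (n = 4 each) and 21.4 ± 4.77 against 2.92 ± 0.754 at 60 min (n = 3 each), and the groups did not overlap. All 10 fibroblast markers examined passed the minimum, and their sum ran from 41692 to 54671 CPM with control siRNA and from 53116 to 61267 CPM with MSK2 siRNA, while 6 leukocyte markers summed to at most 1.77 CPM in any library. PBS control replicate 4, the library with the fewest counts, stood apart from the other 3 of its group. It was the lowest of its group for 18 of the 32 genes and the highest for 10, and 7 of the 32 lay more than 0.5 on the log2 scale from the median of the others. For the genes in which it lay far from the other 3, the differences in PBS are given with and without it. Nothing in the labels says whether replicates were separate cultures, so p-values measure the spread between these libraries, which may be technical.

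ITGB1, the beta chain shared by most collagen and fibronectin receptors, had the highest level of the 32 genes on the scale of CPM per kb of exon, with a median of 150.2 over the 22 libraries and a range of 128 to 184. Its counts ran from 20838 to 52148 per library. ZYX (zyxin) followed at a median of 94.7 CPM per kb, ITGA5 (the alpha chain of the fibronectin receptor) at 87.1, VCL (vinculin) at 81.7 and ITGB5 (a partner of the alpha V chain) at 73.0. The ranges of these 5 neighbours overlapped each other in turn. ITGB5 and the next gene, the adaptor CRK at 40.3, were the only neighbours in the whole order whose ranges over the 22 libraries did not overlap. At the low end, TLN2 (the minor talin) had a median of 1.18, ITGA4 of 1.40 and ITGA1 of 1.98 CPM per kb. Length here is that of all annotated exons of a gene merged, such as 3.27 kb for ZYX and 26.37 kb for LPP. The order between genes depends on this choice. By median CPM, not divided by length, VCL (816) stood above ZYX (310).

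Among the 4 beta chains tested, ITGB1 made up 62.4 to 68.8% of the summed CPM per kb in a library, ITGB5 28.7 to 34.7%, ITGB8 1.35 to 2.89% and ITGB3 0.800 to 1.99%. ITGA5 alone made up 51.3 to 62.5% of the 8 alpha chains, followed by the collagen receptor chains ITGA11 (8.85 to 11.2%) and ITGA2 (8.76 to 11.4%). The laminin receptor chains stood at 3.56 to 12.7% for ITGA3 and 5.20 to 7.92% for ITGA6. On this scale, ITGB1 and ITGA5, the pair of the fibronectin receptor, thus each exceeded the other tested chains of their kind together in every library. ITGAV held 4.69 to 7.10%, ITGA1 0.879 to 1.99% and ITGA4 0.710 to 1.29%. These shares depend on the exon length used, which was 19.34 kb for ITGAV. By median CPM, not divided by length, ITGAV (172) stood above ITGA11 (163) and ITGA2 (118).

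**Figure D1:**
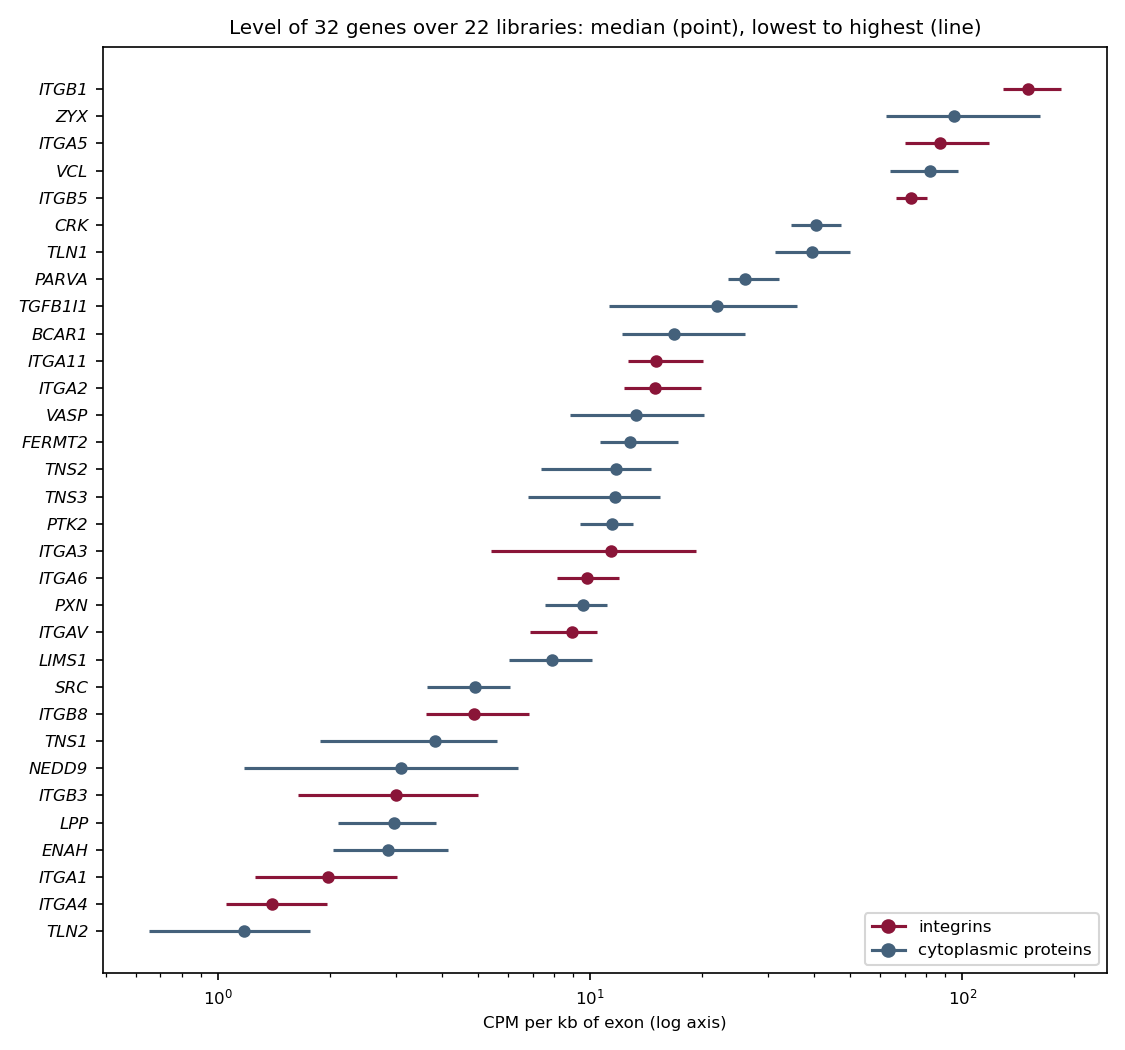
Levels of the 32 genes in CPM per kb of exon on a log axis. Points mark the median over 22 libraries and lines run from the lowest to the highest library, in dark red for integrins and in blue for cytoplasmic proteins. ITGB1 lies at the top with 150.2 and TLN2 at the bottom with 1.18.

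The other 5 genes had over 10 CPM in no library and were not measured. They were the alpha chains ITGA7 (17 to 87 counts), ITGA8 (2 to 126) and ITGA10 (22 to 184), the kinase-like scaffold ILK (9 to 64) and the PINCH protein LIMS2 (40 to 130). For ILK, 78.5% of the exon bases are shared with other genes, TAF10 among them, so its counts are uncertain. Sharing is also high for ITGB3 (33.2% of exon bases), PXN (27.2%) and ITGA4 (26.4%), and their values are uncertain to that extent.

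MSK2 siRNA lowered more of these genes than it raised at each treatment. In PBS, 15 of the 32 were lower and 1 was higher, where 12.6% of all 9770 genes tested were called lower and 12.2% higher (24.8% in all). At 30 min of EGF, 11 were lower and 2 higher, against 15.2% and 14.9% of all genes (30.1% in all). At 60 min, 15 were lower and 1 higher, against 10.1% and 9.37% of all genes (19.4% in all). The median log2 fold change of the 32 was -0.21 in PBS, -0.16 at 30 min and -0.31 at 60 min, while that of all genes tested lay between 0.00 and 0.01. A call means an adjusted p under 0.05 in edgeR's quasi-likelihood test with Benjamini-Hochberg adjustment over all 9770 genes, and this adjusted p is the one given throughout. In these bulk samples, fewer cells with a transcript and less of it per cell cannot be told apart.

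**Figure D2:**
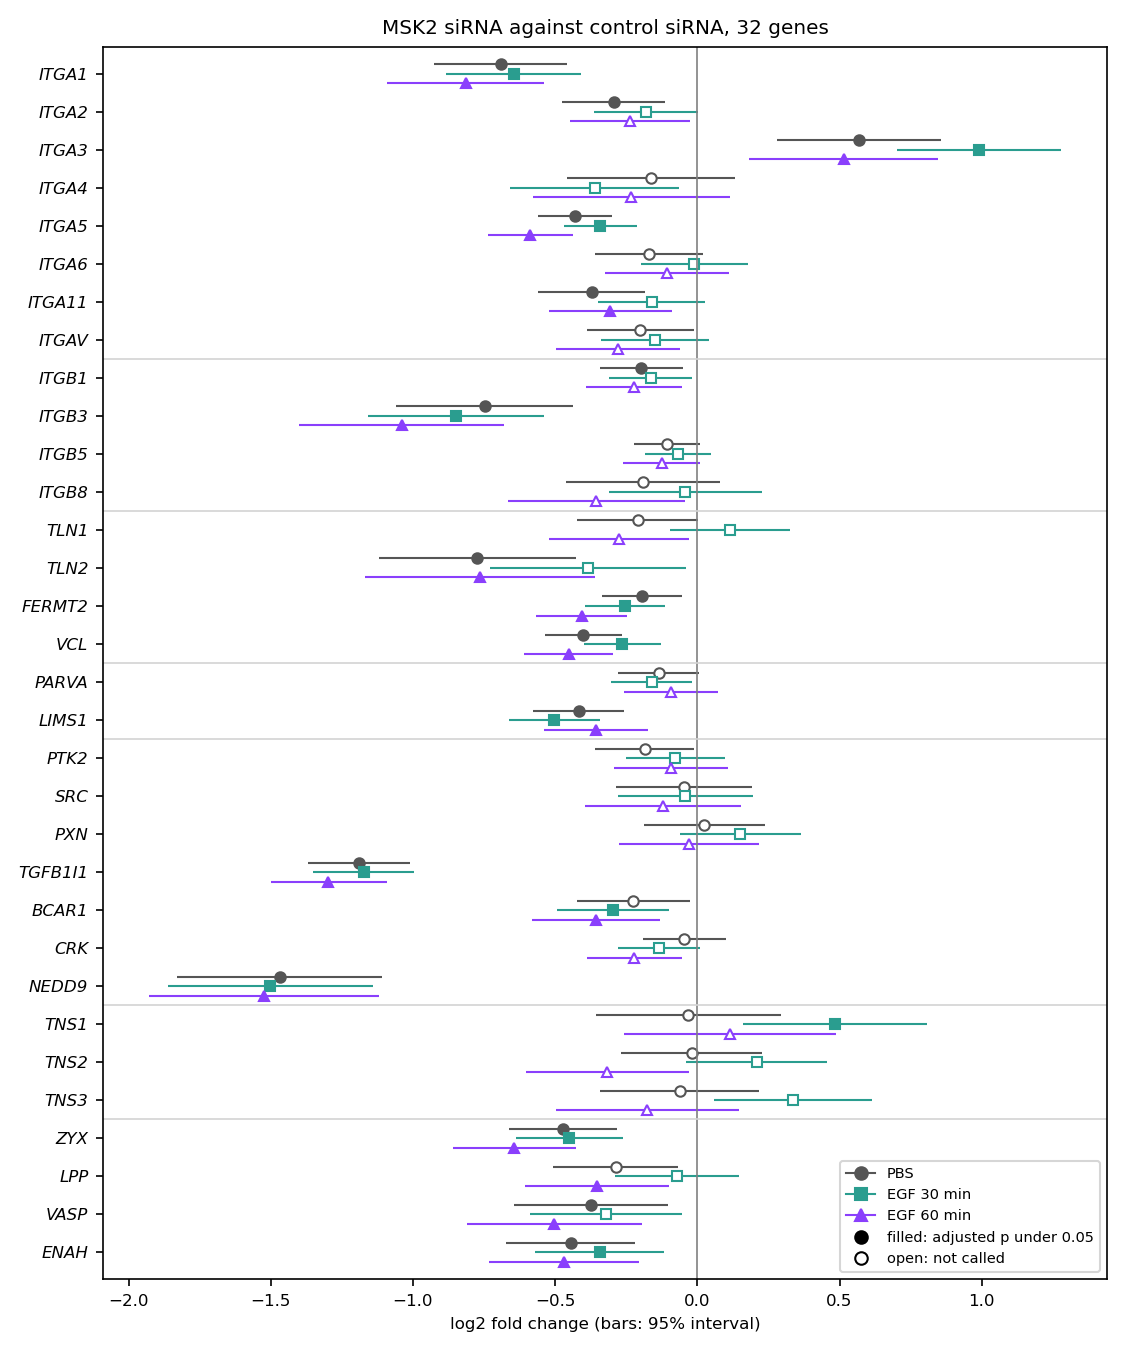
Log2 fold change of each of the 32 genes between MSK2 siRNA and control siRNA in PBS (circles), at 30 min of EGF (squares) and at 60 min (triangles), with 95% intervals as bars. Filled symbols have an adjusted p under 0.05, and grey lines part the functional groups. NEDD9 and TGFB1I1 lie furthest to the left at all 3 treatments and ITGA3 lies to the right at all 3.

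The 3 comparisons use separate libraries, and 10 genes were lower in all of them, where 7.06% of all genes tested were. These were ITGA1, ITGA5, ITGB3, FERMT2, VCL, LIMS1, TGFB1I1, NEDD9, ZYX and ENAH. ITGA3 was higher in all 3, as were 6.05% of all genes, 8 genes were called at 1 or 2 treatments in 1 direction, and 13 at none. Without PBS control replicate 4, 14 genes were lower in PBS, since ITGB1 and FERMT2 were no longer called and the talin gene TLN1 was. Markers of other cell types moved with the siRNA too. The summed level of 6 smooth muscle markers was 447 to 545 CPM with control siRNA and 165 to 200.4 CPM with MSK2 siRNA. Of the 4 of these that were tested, ACTG2, CNN1 and SMTN were lower and LMOD1 higher at each treatment, while MYH11 and DES stayed at or under 2.42 CPM. Of 5 endothelial markers, TEK alone passed the minimum and was lower, and the sum ran from 51.7 to 65.2 CPM with control siRNA and from 16.3 to 27.6 CPM with MSK2 siRNA. Of the fibroblast markers, 2 to 3 were higher and 4 to 6 lower per treatment. The mitochondrial share of counts moved as well, at 1.45 to 1.95% with control siRNA and 2.04 to 2.85% with MSK2 siRNA in PBS and at 1.16 to 1.59% and 1.82 to 1.95% at 60 min, without overlap, while at 30 min it was 1.46 to 2.07% and 1.54 to 2.07%. The part of these markers and of the mitochondrial share in the result was not tested.

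The integrin alpha chains that were called were lower with MSK2 siRNA, except ITGA3. Gene positions are given with GENCODE identifiers on build GRCh38. ITGA1 (ENSG00000213949, chr5:52787916-52959209, plus strand) is the alpha chain of a collagen receptor. ITGA1 stood at 51.2, 51.5, 46.6 and 56.2 CPM in the PBS libraries with control siRNA and at 28.2, 29.1, 33.6 and 35.9 CPM in those with MSK2 siRNA. ITGA1 at 30 min of EGF stood at 50.5, 40.1, 37.4 and 43.9 CPM with control siRNA and at 31.4, 23.3, 25.4 and 29.5 CPM with MSK2 siRNA. ITGA1 at 60 min stood at 47.4, 47.2 and 52.6 CPM with control siRNA and at 33.4, 26.0 and 24.6 CPM with MSK2 siRNA. Every library with MSK2 siRNA lay below every control library of its treatment. ITGA1 log2 fold changes with MSK2 siRNA were -0.69 ± 0.12 in PBS, -0.65 ± 0.12 at 30 min and -0.81 ± 0.13 at 60 min (± SE), with adjusted p of 3.65e-05, 8.87e-05 and 4.81e-05.

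ITGA5 (ENSG00000161638, chr12:54395261-54419266, minus strand), the alpha chain that pairs with ITGB1 to bind fibronectin, was lower at each treatment without overlap. Its level was 749.9 ± 57.4 against 557 ± 23.7 CPM in PBS (SD, n = 4 each), 726 ± 32.8 against 573 ± 23.4 CPM at 30 min (n = 4 each) and 816 ± 50.0 against 543 ± 25.4 CPM at 60 min (n = 3 each). ITGA5 log2 fold changes with MSK2 siRNA were -0.43 ± 0.06 in PBS, -0.34 ± 0.06 at 30 min and -0.59 ± 0.07 at 60 min (± SE), with adjusted p of 6.47e-06, 0.000142 and 8.37e-07.

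ITGA3 (ENSG00000005884, chr17:50055968-50090481, plus strand), the alpha chain of a laminin receptor, moved the other way. ITGA3 stood at 105, 102, 109 and 53.1 CPM in the PBS libraries with control siRNA and at 147, 138, 155 and 112 CPM in those with MSK2 siRNA. ITGA3 at 30 min of EGF stood at 91.2, 82.0, 94.5 and 75.5 CPM with control siRNA and at 188, 171, 144 and 179 CPM with MSK2 siRNA. ITGA3 at 60 min stood at 111, 97.2 and 92.7 CPM with control siRNA and at 149.96, 131 and 148 CPM with MSK2 siRNA. Here the MSK2 siRNA libraries lay above every control library, and the gap was widest at 30 min. ITGA3 log2 fold changes with MSK2 siRNA were 0.57 ± 0.14 in PBS, 0.99 ± 0.14 at 30 min and 0.51 ± 0.16 at 60 min (± SE), with adjusted p of 0.00323, 3.84e-06 and 0.0243. PBS control replicate 4, at 53.1 CPM, was far below the other 3 of its group, and without it the PBS difference was 0.39 (adjusted p = 0.00501). The call at 60 min was lost without EGF 60 min control replicate 2 or 3 or without MSK2 siRNA replicate 1 or 3, with differences of 0.47 to 0.50 and adjusted p of 0.0703 to 0.0979.

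ITGA2, another collagen receptor chain, was lower in PBS (-0.29, adjusted p = 0.0143), with -0.18 at 30 min and -0.24 at 60 min (adjusted p = 0.125 and 0.109). The PBS call was lost without PBS control replicate 1 or PBS MSK2 replicate 1. ITGA11, the alpha chain of a fibroblast collagen receptor, was lower in PBS (-0.37, adjusted p = 0.00311) and at 60 min (-0.31, adjusted p = 0.0404), with -0.16 at 30 min (adjusted p = 0.19). The 60 min call of ITGA11 did not hold when any 1 of the 6 libraries was left out. ITGA4, ITGA6 and ITGAV passed at no treatment, with log2 differences from -0.36 (ITGA4, 30 min) to -0.01 (ITGA6, 30 min).

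ITGB3 (ENSG00000259207, chr17:47253827-47313743, plus strand), which pairs with the alpha V chain to bind vitronectin and fibronectin, had the largest fall among the integrins. ITGB3 stood at 30.4, 29.4, 28.8 and 20.9 CPM in the PBS libraries with control siRNA and at 11.2, 18.5, 18.1 and 18.0 CPM in those with MSK2 siRNA. ITGB3 at 30 min of EGF stood at 24.4, 29.4, 29.0 and 27.8 CPM with control siRNA and at 20.3, 15.5, 12.5 and 13.0 CPM with MSK2 siRNA. ITGB3 at 60 min stood at 28.2, 29.5 and 34.1 CPM with control siRNA and at 15.2, 15.2 and 14.2 CPM with MSK2 siRNA. No MSK2 siRNA library reached the control range of its treatment, although PBS control replicate 4 and PBS MSK2 replicate 1 were each low within their groups. ITGB3 log2 fold changes with MSK2 siRNA were -0.75 ± 0.15 in PBS, -0.85 ± 0.15 at 30 min and -1.04 ± 0.17 at 60 min (± SE), with adjusted p of 0.00045, 8.7e-05 and 7.12e-05. Without PBS control replicate 4 the difference in PBS was -0.85 (adjusted p = 7.68e-05).

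Among the other beta chains, ITGB1 was lower in PBS, with 2415 ± 187 against 2107 ± 189.6 CPM (SD, n = 4 each), a log2 difference of -0.20 ± 0.07 (SE) and an adjusted p of 0.0431. The call was lost without PBS control replicate 2 or 4 and without PBS MSK2 replicate 1, 2 or 3. At 30 and 60 min ITGB1 differed by -0.16 and -0.22 (adjusted p = 0.0827 and 0.0578). ITGB5 and ITGB8, partners of the alpha V chain, passed at no treatment. Their 95% intervals at 60 min, like all intervals here not adjusted for the number of genes, were -0.26 to 0.01 and -0.67 to -0.04.

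Of the proteins that bind beta tails or talin, FERMT2, TLN2 and VCL were lower. FERMT2 (ENSG00000073712, chr14:52857268-52952435, minus strand) encodes kindlin-2, the kindlin of fibroblasts. FERMT2 stood at 109, 111, 109.5 and 126 CPM in the PBS libraries with control siRNA and at 89.9, 102, 99.6 and 106 CPM in those with MSK2 siRNA. FERMT2 at 30 min of EGF stood at 105, 112, 116 and 121 CPM with control siRNA and at 92.5, 94.5, 96.7 and 97.0 CPM with MSK2 siRNA. FERMT2 at 60 min stood at 145, 143 and 146 CPM with control siRNA and at 108, 116 and 103 CPM with MSK2 siRNA. The groups did not overlap at any treatment, with 106 against 109 CPM the narrowest gap, in PBS. FERMT2 log2 fold changes with MSK2 siRNA were -0.19 ± 0.07 in PBS, -0.25 ± 0.07 at 30 min and -0.41 ± 0.08 at 60 min (± SE), with adjusted p of 0.038, 0.00552 and 0.00036. Without PBS control replicate 4 the PBS difference was -0.14 (adjusted p = 0.131), and the PBS call was also lost without PBS control replicate 2 or PBS MSK2 replicate 1, 2 or 3.

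TLN2 (ENSG00000171914, chr15:62390526-62844631, plus strand) encodes talin-2, which joins integrin tails to actin as talin-1 does. TLN2 stood at 28.6, 27.3, 28.2 and 19.3 CPM in the PBS libraries with control siRNA and at 11.1, 15.3, 16.1 and 18.2 CPM in those with MSK2 siRNA. TLN2 at 30 min of EGF stood at 27.4, 25.5, 18.7 and 19.6 CPM with control siRNA and at 18.9, 16.9, 14.3 and 19.4 CPM with MSK2 siRNA. TLN2 at 60 min stood at 24.1, 25.4 and 21.8 CPM with control siRNA and at 18.9, 10.6 and 12.7 CPM with MSK2 siRNA. MSK2 siRNA libraries lay below the control range in PBS and at 60 min and overlapped it at 30 min. TLN2 log2 fold changes with MSK2 siRNA were -0.77 ± 0.17 in PBS, -0.39 ± 0.17 at 30 min and -0.76 ± 0.20 at 60 min (± SE), with adjusted p of 0.000991, 0.0834 and 0.00603. The PBS difference without PBS control replicate 4 was -0.88 (adjusted p = 0.000198). At 60 min the call was lost without MSK2 siRNA replicate 2 (-0.59, adjusted p = 0.0617). TLN1, the main talin of these libraries, passed at no treatment, with log2 differences of -0.21, 0.12 and -0.28 in PBS, at 30 and at 60 min. TLN1 was lower in PBS without PBS control replicate 4 (-0.33, adjusted p = 0.00613).

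VCL (ENSG00000035403, chr10:73995193-74121363, plus strand), which reinforces the bond of talin with actin, was lower at each treatment. It went from 916 ± 55.0 to 694 ± 36.1 CPM in PBS (SD, n = 4 each), from 860.0 ± 46.6 to 716 ± 66.8 at 30 min (n = 4 each) and from 904 ± 18.8 to 660.3 ± 29.0 at 60 min (n = 3 each). At 30 min the highest MSK2 siRNA library, at 816.1 CPM, lay just under the lowest control library, at 816.4 CPM. VCL log2 fold changes with MSK2 siRNA were -0.40 ± 0.07 in PBS, -0.26 ± 0.07 at 30 min and -0.45 ± 0.08 at 60 min (± SE), with adjusted p of 3.72e-05, 0.00334 and 7.46e-05. In the ILK complex, LIMS1 (PINCH-1, a chain of LIM domains that holds ILK) was lower at each treatment at -0.42, -0.50 and -0.36 on the log2 scale, with adjusted p of 0.000172, 1.3e-05 and 0.00489. Its libraries ran from 81.3 to 91.8 against 54.9 to 68.4 CPM in PBS to 75.6 to 87.9 against 60.9 to 66.1 CPM at 60 min. PARVA, the parvin that binds actin in this complex, passed at no treatment, and its 95% interval at 60 min was -0.26 to 0.07.

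The largest differences of all were in 2 scaffold proteins. NEDD9 (ENSG00000111859, chr6:11183298-11382348, minus strand) is a relative of p130Cas that is phosphorylated by focal adhesion kinase and Src. NEDD9 stood at 46.6, 46.9, 36.4 and 57.5 CPM in the PBS libraries with control siRNA and at 12.2, 16.97, 14.5 and 23.2 CPM in those with MSK2 siRNA. NEDD9 at 30 min of EGF stood at 35.3, 45.3, 49.8 and 49.5 CPM with control siRNA and at 16.5, 17.9, 12.7 and 16.5 CPM with MSK2 siRNA. NEDD9 at 60 min stood at 58.1, 66.3 and 57.3 CPM with control siRNA and at 28.9, 17.1 and 17.6 CPM with MSK2 siRNA. The highest MSK2 siRNA value at any treatment, 28.9 CPM, was below the lowest control value of 35.3 CPM. NEDD9 log2 fold changes with MSK2 siRNA were -1.47 ± 0.17 in PBS, -1.50 ± 0.17 at 30 min and -1.52 ± 0.20 at 60 min (± SE), with adjusted p of 2.61e-07, 1.62e-07 and 1.83e-06.

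TGFB1I1 (ENSG00000140682, chr16:31471585-31477960, plus strand) encodes Hic-5, a relative of paxillin that is induced by TGF-beta. TGFB1I1 stood at 177, 167, 169.8 and 148 CPM in the PBS libraries with control siRNA and at 89.0, 69.9, 71.3 and 60.7 CPM in those with MSK2 siRNA. TGFB1I1 at 30 min of EGF stood at 179.7, 169, 175 and 160.2 CPM with control siRNA and at 76.4, 80.0, 72.1 and 75.1 CPM with MSK2 siRNA. TGFB1I1 at 60 min stood at 195, 169 and 175 CPM with control siRNA and at 72.5, 73.5 and 72.9 CPM with MSK2 siRNA. The control libraries ranged from 148 to 195 CPM over all treatments and the MSK2 siRNA libraries from 60.7 to 89.0 CPM. TGFB1I1 log2 fold changes with MSK2 siRNA were -1.19 ± 0.09 in PBS, -1.17 ± 0.09 at 30 min and -1.30 ± 0.10 at 60 min (± SE), with adjusted p of 2.45e-11, 3.07e-11 and 1.33e-10. Paxillin itself (PXN) passed at no treatment, with differences of 0.02, 0.15 and -0.03 and a 95% interval at 60 min of -0.27 to 0.21.

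BCAR1 (ENSG00000050820, chr16:75228181-75268053, minus strand) encodes p130Cas itself, a scaffold that is stretched and phosphorylated at adhesions. BCAR1 stood at 185, 138, 151 and 156 CPM in the PBS libraries with control siRNA and at 154, 112, 130.2 and 143 CPM in those with MSK2 siRNA. BCAR1 at 30 min of EGF stood at 177, 155, 155 and 171 CPM with control siRNA and at 134, 138, 126 and 138 CPM with MSK2 siRNA. BCAR1 at 60 min stood at 239, 182 and 188 CPM with control siRNA and at 163, 165 and 148 CPM with MSK2 siRNA. The siRNA groups overlapped in PBS and did not overlap at 30 or 60 min. BCAR1 log2 fold changes with MSK2 siRNA were -0.23 ± 0.10 in PBS, -0.30 ± 0.10 at 30 min and -0.36 ± 0.11 at 60 min (± SE), with adjusted p of 0.0899, 0.02 and 0.022. In PBS, where replicates of the same number deviated together, the fit with the replicate number as a block gave an adjusted p of 0.0238. The call at 30 min was lost without control replicate 1 (adjusted p = 0.055), and the call at 60 min without control replicate 1 or MSK2 siRNA replicate 3 (adjusted p = 0.206 and 0.106).

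The central kinases passed at no treatment. PTK2 (focal adhesion kinase) had differences of -0.19, -0.08 and -0.09 and SRC of -0.05, -0.04 and -0.12, with 95% intervals at 60 min of -0.29 to 0.11 and -0.40 to 0.15. CRK, an adaptor that binds phosphorylated p130Cas, differed by -0.22 at 60 min (adjusted p = 0.0558). Of the tensins, which bind integrin tails in older adhesions, TNS1 was higher at 30 min (49.7 to 64.3 CPM against 66.1 to 91.9 CPM, log2 difference 0.48 ± 0.16 (SE), adjusted p = 0.0203), and this call was lost without control replicate 2 or 4 or MSK2 siRNA replicate 1. TNS2 and TNS3 passed at no treatment, with 30 min differences of 0.21 and 0.34 (adjusted p = 0.2 and 0.0607) and 60 min differences of -0.32 and -0.18. In PBS, TNS1, TNS2 and TNS3 differed by -0.03, -0.02 and -0.06. Without PBS control replicate 4 they differed by -0.23, -0.16 and -0.23 (adjusted p = 0.128, 0.247 and 0.103).

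The zyxin and VASP families were lower as a whole at 60 min, when all 4 genes passed the test, with 3 of 4 in PBS and 2 of 4 at 30 min. ZYX (ENSG00000159840, chr7:143381295-143391111, plus strand) encodes zyxin, which moves to stress fibers under strain and brings VASP there. ZYX stood at 375, 332, 369.5 and 284 CPM in the PBS libraries with control siRNA and at 288, 245, 245 and 204 CPM in those with MSK2 siRNA. ZYX at 30 min of EGF stood at 402, 343, 354 and 335 CPM with control siRNA and at 258, 277, 245 and 270.0 CPM with MSK2 siRNA. ZYX at 60 min stood at 529, 438 and 457 CPM with control siRNA and at 316, 304 and 291 CPM with MSK2 siRNA. In PBS the highest MSK2 siRNA library, at 288 CPM, was just above the lowest control library, replicate 4 at 284 CPM, and at both EGF times the groups did not overlap. ZYX log2 fold changes with MSK2 siRNA were -0.47 ± 0.09 in PBS, -0.45 ± 0.09 at 30 min and -0.64 ± 0.11 at 60 min (± SE), with adjusted p of 0.000283, 0.00044 and 5.16e-05.

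VASP, which helps actin filaments to lengthen, was lower in PBS (-0.37, adjusted p = 0.0371) and at 60 min (-0.50, adjusted p = 0.0172), with -0.32 at 30 min (adjusted p = 0.0639). The PBS difference of VASP without PBS control replicate 4 was -0.49 (adjusted p = 0.00406). ENAH (Mena), a relative of VASP, was lower at each treatment, at -0.45, -0.34 and -0.47 (adjusted p = 0.0034, 0.0193 and 0.00928). LPP, a relative of zyxin, was lower at 60 min (-0.35, adjusted p = 0.0439), with -0.29 in PBS (adjusted p = 0.0506). Several of these calls were lost when 1 library was left out. The PBS call of VASP was lost without PBS control replicate 1, 2 or 3 and without PBS MSK2 replicate 1, 2 or 4, the 60 min call of VASP without control replicate 1 or MSK2 siRNA replicate 3, that of ENAH at 30 min without control replicate 1 or MSK2 siRNA replicate 2 and at 60 min without MSK2 siRNA replicate 3, and that of LPP at 60 min without any 1 of the 6 libraries except control replicate 1.

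**Figure D3:**
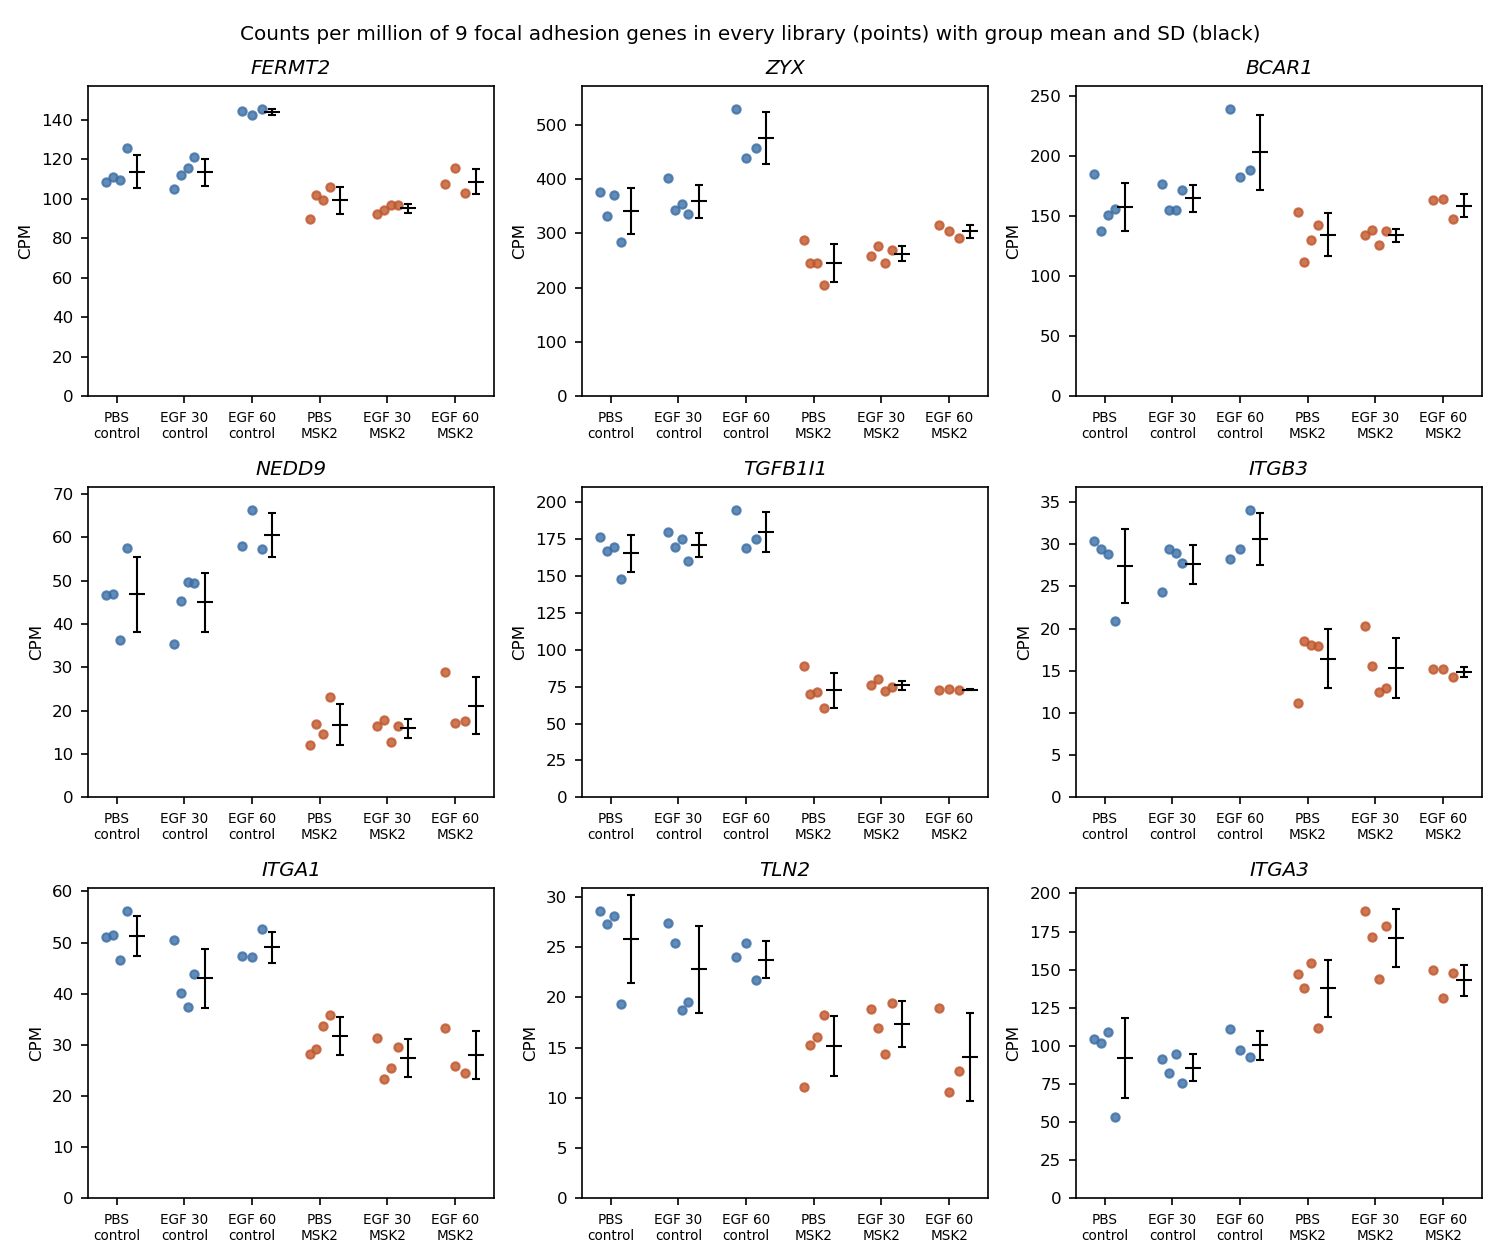
CPM of 9 genes in each of the 22 libraries, with control siRNA in blue and MSK2 siRNA in orange. Black marks are the group mean and SD (n = 4 for PBS and 30 min, n = 3 for 60 min). FERMT2, ZYX and BCAR1 are highest at 60 min of EGF with control siRNA, NEDD9, TGFB1I1, ITGB3, ITGA1 and TLN2 lie lower with MSK2 siRNA, and ITGA3 lies higher.

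Over the 22 libraries, the 13 genes called at no treatment spanned the range of levels. Among the integrins, ITGA4 ran from 11.2 to 20.9, ITGA6 from 54.4 to 79.9, ITGAV from 134 to 202, ITGB5 from 431 to 522 and ITGB8 from 55.0 to 104 CPM. In the cytoplasmic group, TLN1 ran from 312 to 495, PARVA from 293 to 402, PTK2 from 129 to 179, SRC from 26.0 to 43.5, PXN from 56.3 to 82.7, CRK from 140.5 to 192, TNS2 from 58.9 to 116 and TNS3 from 85.4 to 194 CPM. Genes called at 1 or 2 treatments included ITGA2 at 97.1 to 157, ITGA11 at 137 to 218, LPP at 55.4 to 102 and VASP at 31.3 to 71.8 CPM, and ENAH, called at all 3, stood at 31.0 to 63.2 CPM. Calls and misses thus occurred among both scarce and abundant transcripts.

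EGF itself gave few calls among these genes. At 30 min with control siRNA, edgeR's quasi-likelihood test called 0 of the 32, where 0.614% of all genes tested were called. At an unadjusted p under 0.05, 1 was lower and 0 were higher, beside 2.11% and 2.86% of all genes, and the exact test and DESeq2 also called 0. At 60 min, 2 were higher and 0 lower, FERMT2 and ZYX, where 2.65% of all genes were called, 2.50% higher and 0.154% lower. At an unadjusted p under 0.05, 7 of the 32 were higher and 0 lower, beside 6.83% and 4.36% of all genes. No integrin passed at either time. A miss does not show that a gene was unchanged. In simulated counts the 60 min comparison called 57% of changes of 0.5 on the log2 scale.

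FERMT2 rose from 114 ± 8.23 CPM in PBS (SD, n = 4) to 144 ± 1.51 CPM at 60 min (n = 3), with 113 ± 6.72 CPM at 30 min (n = 4). All 3 libraries at 60 min, at 145, 143 and 146 CPM, lay above the highest PBS library. The log2 fold change was 0.34 ± 0.07 (SE) and the adjusted p 0.00389, and without PBS control replicate 4, the highest PBS library, they were 0.39 and 0.000843. ZYX rose from 340.1 ± 42.3 CPM (SD, n = 4) to 474 ± 47.8 CPM (n = 3), also without overlap, by 0.48 ± 0.10 (SE) with an adjusted p of 0.00265. Its call did not hold without 60 min control replicate 1, the highest library (0.39, adjusted p = 0.0545). Without PBS control replicate 4, the difference was 0.40 (adjusted p = 0.0128).

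BCAR1 lay next to the threshold, with 157 ± 19.7 CPM in PBS (SD, n = 4) and 203 ± 31.2 CPM at 60 min (n = 3). The lowest library at 60 min (182 CPM) was below the highest in PBS (185 CPM), so the groups overlapped. The log2 difference was 0.37 ± 0.10 (SE) and the adjusted p 0.0504, and 7 of 8 other settings of the fit gave an adjusted p of 0.00381 to 0.0445. Without PBS control replicate 4 the difference was 0.36 (adjusted p = 0.0882). ZYX, BCAR1 and FERMT2 were also on a list of MSK2-dependent EGF genes that the study drew up from these same libraries, so their direction here is no independent evidence.

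VASP stood at 37.2 to 55.2 CPM in PBS and 60.9 to 71.8 CPM at 60 min (0.36, adjusted p = 0.262), and NEDD9 at 36.4 to 57.5 and 57.3 to 66.3 CPM (0.38, adjusted p = 0.418). Neither passed the test over all genes, and without PBS control replicate 4 the differences were 0.25 and 0.48 (adjusted p = 0.611 and 0.271). By group, the median log2 difference at 60 min was -0.06 for the alpha chains and 0.06 for the beta chains, 0.17 for the kinases and adaptors and 0.20 for the zyxin and VASP families, beside -0.01 for all genes tested. These medians without PBS control replicate 4 were -0.09, 0.02, 0.08 and 0.15, and the median of the 32 genes went from 0.04 to -0.01, while without PBS control replicate 1 it was 0.11. The tensins had a median of 0.165 with all libraries and -0.009 without PBS control replicate 4. Talin, kindlin and vinculin had 0.007 and -0.053, and the ILK complex had -0.104 and -0.061. Of 3 epithelial markers tested, KRT18 rose at 60 min (0.44, adjusted p = 0.0168), while EPCAM stayed at or under 2.19 CPM, and the sum of 8 such markers ran from 55.7 to 64.0 CPM in PBS and from 63.2 to 70.1 CPM at 60 min. Of the 4 smooth muscle markers tested 0 were called and 2 were higher at an unadjusted p under 0.05, with a median of 0.22, and the sum of that list was 447 to 475 CPM in PBS and 504 to 545 CPM at 60 min. The part of these markers in the result was not tested.

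**Figure D4:**
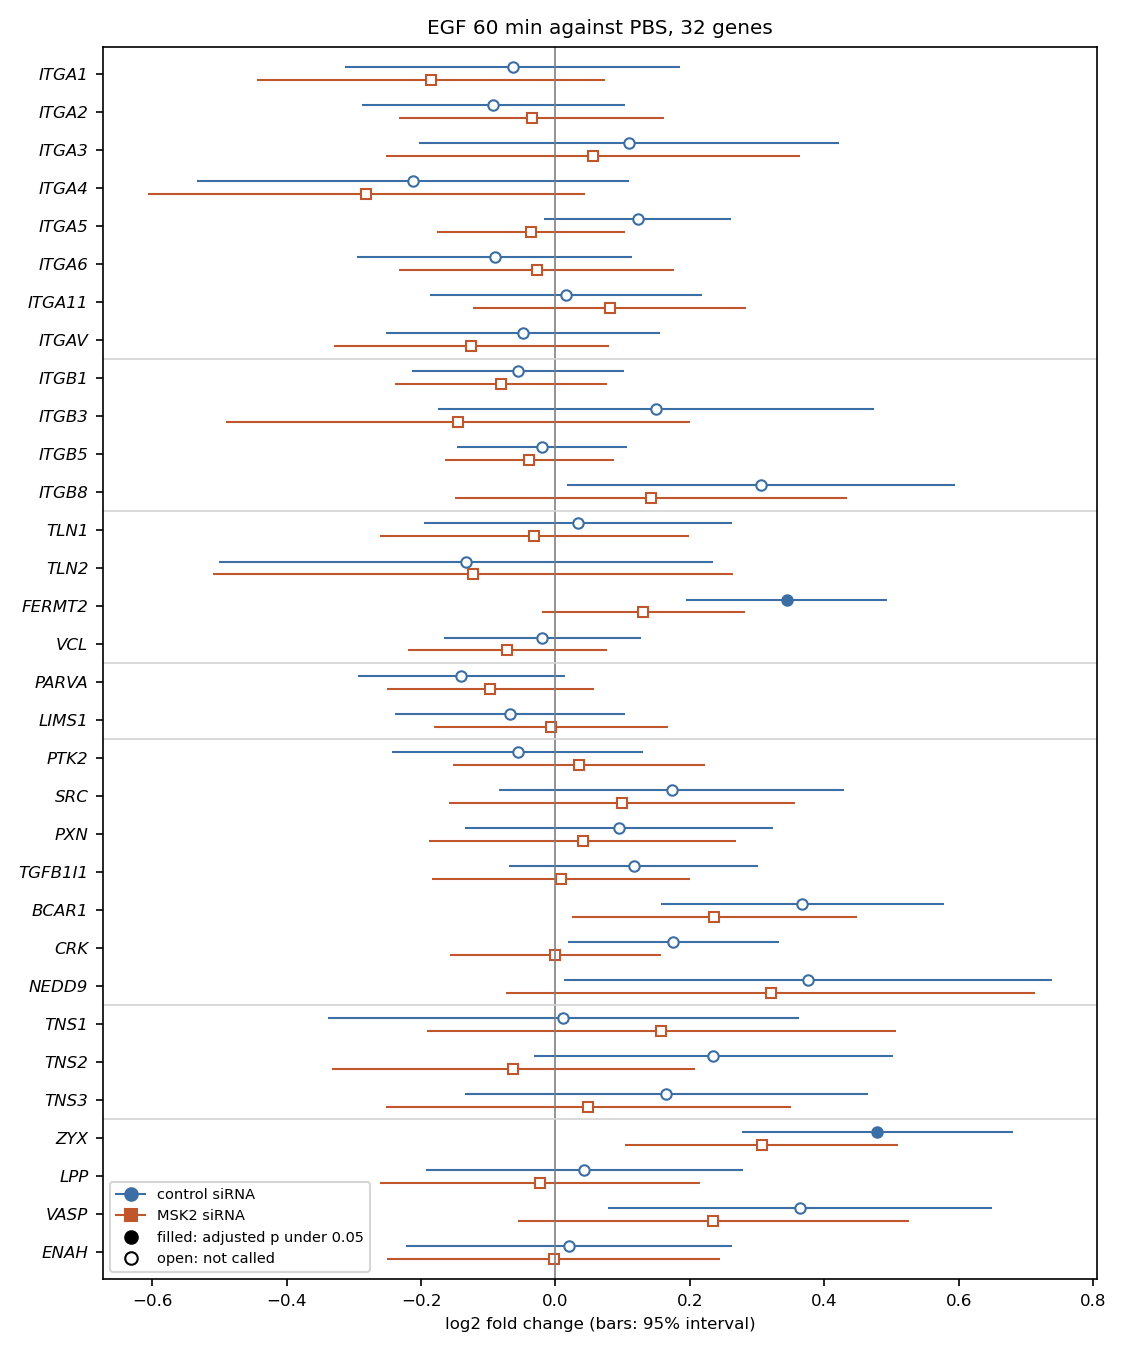
Log2 fold change of each of the 32 genes between 60 min of EGF and PBS, with control siRNA (blue circles) and with MSK2 siRNA (orange squares). Bars are 95% intervals and filled symbols have an adjusted p under 0.05. FERMT2 at 0.34 and ZYX at 0.48 with control siRNA are the filled symbols.

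With MSK2 siRNA, EGF gave 0 calls among the 32 genes in edgeR's quasi-likelihood test at either time, where 0.778% of all genes were called at 30 min (0.768% higher and 0.0102% lower) and 2.16% at 60 min (2.11% higher and 0.0512% lower). At an unadjusted p under 0.05, 3 were higher and 2 lower at 30 min, beside 6.43% and 3.37% of all genes. At 60 min 2 were higher and 0 lower, beside 5.89% and 2.69% of all genes, and the exact test and DESeq2 called 0 at both times. ZYX stood at 204 to 288 CPM in PBS and 291 to 316 CPM at 60 min, with no overlap, a difference of 0.31 ± 0.10 (SE) and an adjusted p of 0.138, and it was called without PBS MSK2 replicate 1. FERMT2 differed by 0.13 ± 0.07 and BCAR1 by 0.24 ± 0.10 (SE), with adjusted p of 0.709 and 0.474. A pass with control siRNA and a miss with MSK2 siRNA do not show that the responses differed, so the difference of the responses was tested.

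For the difference of the EGF responses between the siRNAs, edgeR's quasi-likelihood test called 0 of the 32 genes at 30 and 60 min, and 0% of all genes were called at either time. At an unadjusted p under 0.05 there were 4 genes with a larger response with MSK2 siRNA at 30 min (ITGA3, TLN1, TNS1 and TNS3) and 0 with a smaller one, beside 3.75% and 3.02% of all genes. At 60 min there were 0 in either direction, beside 1.07% and 1.14%, and DESeq2 called 0 at both times. At 60 min the response with MSK2 siRNA minus that with control siRNA was -0.21 for FERMT2 (95% interval -0.43 to 0.00), -0.17 for ZYX (-0.46 to 0.12) and -0.13 for BCAR1 (-0.43 to 0.17), all with an adjusted p of 1. For TNS1 at 30 min it was 0.52 (0.06 to 0.97, adjusted p = 0.713), and TNS1 was called without PBS control replicate 4, its lowest PBS library. That library was also far below the others of its group for ITGA3, TLN1 and TNS3. Without it their 30 min values went from 0.42, 0.33 and 0.40 to 0.60, 0.44 and 0.56. Their adjusted p were then 0.0604, 0.102 and 0.084, so they were still not called.

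The matrix proteins that integrins bind went both ways with MSK2 siRNA. Of 25 ligand genes tested, 5 were higher and 9 lower in PBS, where 12.2% of all genes were higher and 12.6% lower. At 30 min 11 were higher and 5 lower, beside 14.9% and 15.2%, and at 60 min 4 were higher and 5 lower, beside 9.37% and 10.1%. SPP1 (osteopontin) was higher at each treatment (0.61, 0.79 and 0.77), and the elastic fiber protein FBLN5 (-0.63, -0.65 and -0.68) and the basement membrane collagen COL4A1 (-0.75, -0.48 and -0.62) were lower at each. FBN1 (fibrillin-1) was lower in PBS and at 60 min (-0.53 and -0.69), with -0.09 at 30 min (adjusted p = 0.624).

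Of 26 other adaptors and scaffolds of focal adhesions tested, 14 were lower and 1 higher in PBS (all genes 12.6% and 12.2%), 15 lower and 1 higher at 30 min (15.2% and 14.9%) and 15 lower and 0 higher at 60 min (10.1% and 9.37%). At 60 min 0 were higher at an unadjusted p under 0.05 too. The list had a median log2 difference of -0.355 at 60 min beside 0.01 for all genes. PDLIM1, which binds alpha-actinin, stood at -1.16, -1.31 and -1.13, ARPC2, a subunit of the Arp2/3 complex, at -0.97, -0.996 and -0.90, FBLIM1 (migfilin, a partner of kindlin) at -0.74, -0.46 and -0.83, and PDLIM7 at -0.65, -0.68 and -0.79, all called at each treatment.

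Of 32 other kinases, phosphatases and exchange factors tested, 5 were lower and 1 higher in PBS, 3 lower and 2 higher at 30 min and 3 lower and 1 higher at 60 min, beside 12.6% lower and 12.2% higher, 15.2% and 14.9%, and 10.1% and 9.37% of all genes. CDC42, a small GTPase of actin protrusions, was lower at each treatment, with -1.68, -1.47 and -1.25 over the treatments. PTPN12, a phosphatase of p130Cas, and ASAP1 were lower at 60 min (-0.38 and -0.30), and the protease subunit CAPN2, which cuts talin, was higher (0.19). Of 16 membrane partners tested, 3 were higher and 4 lower in PBS, 2 higher and 6 lower at 30 min, and 1 higher and 3 lower at 60 min, again beside 12.2% and 12.6%, 14.9% and 15.2%, and 9.37% and 10.1% of all genes. At 60 min CD9, a tetraspanin, was higher (0.44), and CAV1 (-0.38), CD82 (-0.35) and THY1 (-0.28) were lower.

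EGF at 60 min raised 2 of the 16 membrane partners with either siRNA, where 2.50% of all genes were higher with control siRNA and 2.11% with MSK2 siRNA. PLAUR (the urokinase receptor) rose by 0.50 ± 0.08 and 0.60 ± 0.08 (SE, log2) with control and MSK2 siRNA, and the syndecan SDC4 by 0.47 ± 0.10 and 0.47 ± 0.10. At that time edgeR's test called 0 ligands, 0 other adaptors and 0 other kinases with either siRNA. At an unadjusted p under 0.05, 2 ligands were higher and 1 lower, 1 adaptor was higher, and 3 kinases were higher and 1 lower with control siRNA, and 1 ligand and 1 kinase were higher with MSK2 siRNA. Of all genes, 6.83% were higher and 4.36% lower at that threshold with control siRNA, and 5.89% and 2.69% with MSK2 siRNA. Of 11 integrin genes outside the 37, only ITGAE passed the minimum level, and it was lower at 30 min with MSK2 siRNA (-0.31, adjusted p = 0.017).

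The 250 bases upstream of RefSeq start sites (build GRCh38.p14) were searched on both strands for motifs of factors that respond to growth factors or to tension. Of the 37 genes, 31 had at least 1 window, 65 in all. The CArG box, the site of serum response factor, was in 1.16% of all 35116 windows and in 2 of the 65, in LPP and TGFB1I1. The AP-1 site TGANTCA was in 6.57% of all windows and in 5 of the 65, in BCAR1, LIMS1 and LPP. The TEAD site GGAATG was in 11.9% of all windows and in 9 of the 65, in ITGA5, ITGA10, ITGB1, LPP, PXN, TNS1 and VCL. The cAMP response element TGACGTCA, the site of the MSK target CREB, was in 1.65% of all windows and in 1 of the 65, in LPP. A match of letters is not a measured site.

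The stretches below show 6 of the matches, each in a gene that was lower with MSK2 siRNA at 1 or more treatments, and stretches of 2 genes without a match that EGF raised at 60 min. Matches in LIMS1, ITGB1, ITGA10, PXN and TNS1 and the further ones in LPP are not printed. Of these genes, ITGA10 did not pass the minimum level, and PXN and TNS1 were lower at no treatment. Each is written 5′ to 3′ on the strand of the gene, with motif letters in capitals. ITGA5 (chr12:54419267-54419366, minus strand) and VCL (chr10:73997916-73998015, plus strand) hold a TEAD site. LPP (chr3:188212512-188212611, plus strand) holds a CArG box and an AP-1 site, TGFB1I1 (chr16:31473144-31473173, plus strand) a CArG box that lies in exons of other annotated transcripts of the gene, and BCAR1 (chr16:75268058-75268157, minus strand) an AP-1 site. ZYX (chr7:143381195-143381294, plus strand) and FERMT2 (chr14:52951051-52951150, minus strand), the 2 genes that rose with EGF, hold none of the 4 motifs in 250 bases. The stretches of VCL, LPP and FERMT2, like that of TGFB1I1, lie within the annotated span of the gene.
ITGA5: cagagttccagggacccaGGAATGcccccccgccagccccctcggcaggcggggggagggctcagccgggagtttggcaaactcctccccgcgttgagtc
VCL: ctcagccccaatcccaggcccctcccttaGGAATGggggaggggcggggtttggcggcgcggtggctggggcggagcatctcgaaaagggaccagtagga
LPP: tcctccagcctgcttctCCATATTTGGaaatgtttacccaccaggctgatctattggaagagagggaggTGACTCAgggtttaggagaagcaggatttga
TGFB1I1: tggaggggagCCAAATTTGGcttgggtgaa
BCAR1: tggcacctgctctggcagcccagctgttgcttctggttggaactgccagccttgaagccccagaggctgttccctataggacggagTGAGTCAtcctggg
ZYX: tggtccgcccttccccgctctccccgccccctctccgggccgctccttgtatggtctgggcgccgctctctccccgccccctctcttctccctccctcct
FERMT2: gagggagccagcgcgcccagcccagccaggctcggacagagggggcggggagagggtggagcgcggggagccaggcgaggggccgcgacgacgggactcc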

How the data were processed

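RNA was measured in 22 libraries of IMR90 cells, grouped by the labels. The authors made cDNA with SMART-Seq v4 and unstranded libraries with Nextera XT, used bcl2fastq 2.20.0.422, aligned to hg38 with STAR 2.7.9a and counted with HTSeq 0.13.5. The files they deposited hold raw counts per gene. The annotation release and the strand setting are not given in the sources used here. Summary lines of reads in no gene (18.3 to 22.4% of a library) were left out.

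Counts were tested with edgeR 4.0.16 (R 4.3.3): TMM scaling, genes over 10 CPM in at least 2 libraries (9770 of 60664), 1 quasi-likelihood fit of 6 group means, and Benjamini-Hochberg adjustment over all genes tested, called under 0.05. Intervals are 95%. The exact test of edgeR, which the authors used, and DESeq2 1.42.0 were alternatives, with other scalings, filters, groups in the fit, a replicate block and libraries left out. The test was checked on simulated counts for EGF at 60 min with control siRNA and for the siRNA comparisons. It called 57 to 78% of changes of 0.5 on the log2 scale and 98 to 100% of changes of 1. Of its calls, 1.89 to 7.61% were false, with the highest share for the siRNA comparison at 30 min. The simulation changed 200 genes, fewer than the siRNA comparisons called in the data, and held no library that stood apart. Its shares thus need not hold for the data. Replicates of a group differed by more than sampling noise in all 30 pairs (chi-square per degree of freedom 5.05 to 31.8). Between the PBS groups, libraries with the same number deviated together (correlations of 0.143 to 0.500 in 4 pairs). The numbers come from the labels, which do not say what they share. Exon lengths and coordinates came from GENCODE 44, matched by gene ID for all 37 genes.

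The genes and lists were chosen with earlier results of these data known. Every one of the 37 was named. Values in every library were given for genes called with EGF, for ZYX, BCAR1 and FERMT2, and for called genes with the largest fall (5) or rise (up to 5) at 60 min between siRNAs with no overlap. From each other list at most 4 called genes were named by size at 60 min.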

Additional observations from a re-analysis of the deposited data

Results flagged for a closer look

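In 12 of 128 groups of 4 libraries, 1 library lay so far from the other 3 that its gap exceeded Dixon's 95% limit. Chance flags about 1 in 20 groups. Of the 12, 8 were PBS control replicate 4. It was low for ITGA3 (53.1 CPM against 102 to 109 in the others), ITGB3 (20.9 against 28.8 to 30.4), TLN1 (312 against 446 to 468), TLN2 (19.3 against 27.3 to 28.6), TNS1 (30.7 against 67.4 to 71.3), TNS3 (85.4 against 155 to 161) and VASP (37.2 against 54.6 to 55.2), and high for FERMT2 (126 against 109 to 111).

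PBS MSK2 replicate 1 was low for ITGB3 (11.2 CPM against 18.0 to 18.5) and for VCL (640 against 706 to 715). At 30 min of EGF, VCL was high in MSK2 siRNA replicate 1 (816 CPM against 674 to 692) and CRK was high in control replicate 4 (182 against 165 to 167).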

How the results depend on the processing

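Refits of single genes were counted only for FERMT2, ZYX, BCAR1, NEDD9, TGFB1I1, ITGB3, ITGA1, TLN2 and ITGA3, mostly genes with large differences. Counted were their called values and that of BCAR1 at 60 min of EGF with control siRNA. Over 28 values of these genes and 427 refits, 400 kept their direction and their side of the threshold. Of the rest, 18 lost and 9 gained a call, and 0 changed direction. The less stable calls of ITGA2, ITGA11, ITGB1, VASP, ENAH, LPP and TNS1 are not in these counts. With no filter on low counts, 3 genes were called at 30 min of EGF with MSK2 siRNA (ITGA3, TNS1 and TNS3) and 1 at 60 min (ZYX), and the genes higher with MSK2 siRNA numbered 2 in PBS, 4 at 30 min and 2 at 60 min. With filterByExpr they numbered 2 in PBS, 3 at 30 min and 2 at 60 min. Both filters test all 37 genes, and ITGA10 (higher) and ITGA8 (lower) were then called in all 3 siRNA comparisons. Without a filter, the genes called over the whole table at 30 min of EGF with MSK2 siRNA were 212 higher and 4 lower in place of 75 and 1. For the difference of the responses they were 43 and 6 at 30 min and 1 and 3 at 60 min in place of 0, with 0 and 3 at 60 min in DESeq2 and 0 and 2 with the replicate block. The cause was not tested.

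Leaving out 1 library at a time gave 1 to 3 calls at 60 min of EGF with control siRNA and 0 to 1 with MSK2 siRNA. It gave 12 to 14 genes lower in PBS with MSK2 siRNA, 10 to 13 at 30 min and 10 to 13 at 60 min. Genes higher with MSK2 siRNA were 1 in PBS throughout, 1 to 3 at 30 min and 0 to 1 at 60 min. Calls for the difference of the responses were 0 to 1 at 30 min.

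With the replicate number as a block, 16 genes were lower with MSK2 siRNA in PBS, 14 at 30 min and 20 at 60 min, and 3 were higher at 60 min of EGF with control siRNA. Pairing is a hint from the data for PBS (3 of 4 pairs correlated best with their own number). At 30 and 60 min, where pairs correlated at -0.181 to 0.0823 and -0.0326 to 0.145, and in the EGF comparisons (-0.348 to 0.416), the samples share a number and no more. In PBS, the block changed the call of no gene of the 32 but BCAR1. The 5 untested genes fell below the minimum of 10 CPM and had at most 184 counts in a library.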
